A study of Rattus norvegicus with 25 samples.

Results

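A group of genes of bone-forming cells and the matrix they mineralize was followed in rat gingiva. Of the 30547 genes of the expression table, the 10 chosen by symbol were Runx2, Sp7, Pth1r, Alpl, Phex, Bglap, Ibsp, Dmp1, Spp1 and Sparc. Where several transcripts carried 1 symbol they were summed. All 10 had at least 1 read in every library, and all 10 were among the 16092 genes tested.

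The study asked how a hydrogel of curcumin and zinc oxide nanoparticles (ZNPs) acts on gingiva in experimental periodontitis (EP). Gingiva was taken from 25 wild-type Sprague-Dawley rats, labelled as 6 weeks old, with 1 library per rat and 5 rats per group. The Cur/ZNP gel group had EP and received curcumin and ZNPs in 1 gel, the ZNP gel group had EP and received ZNPs, and the Cur gel group had EP and received curcumin. The EP group had silk ligatures on both upper first molars with Porphyromonas gingivalis and no drug, and the Sham group received drug-free hydrogel. Gels were placed once a week for 4 weeks, 200 µL at a time. By the study's methods the combined gel held each drug at a lower concentration than the single gels. Those methods also give another age for the rats, and whether EP rats received a drug-free gel is not stated. Periodontitis here was induced by ligature and bacteria, and the gingiva was sampled as bulk tissue.

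Osteoblasts make bone in stages. RUNX2 commits precursors to the lineage and SP7, also called osterix, acts after it, whereupon the cells lay down type I collagen, raise alkaline phosphatase and secrete acidic proteins that bind calcium and guide mineral. Alveolar bone lies directly under gingiva, and its loss defines periodontitis. Several of these genes are also used elsewhere: SPP1 is made by macrophages, SPARC by fibroblasts, and alkaline phosphatase by endothelium and neutrophils.

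Library depth was 50690789 to 81791804 reads (median 62227570), of which the 10 genes together took 0.063% to 0.266%. In all, 3 libraries stood apart: nasal gland genes held 21.9% of the reads of Sham 4, 16.6% of EP 3 and 20.6% of EP 4, and at most 0.104% in any other library. Keratinocyte genes were detected in every library. They held 0.106% of the reads of Sham 4, 0.333% of EP 3 and 0.362% of EP 4. In the other libraries they held from 0.925% (EP 2) to 2.86% (Sham 2). Gene positions are those of the Rnor_6.0 build. Values below are normalized counts, which are reads divided by a size factor for each library, listed in the order of library numbers 1 to 5. Differences are log2 fold changes of (normalized count + 1) with their standard error (SE), from limma over all 25 libraries and with Benjamini-Hochberg adjustment over the 16092 genes. A gene was called at an adjusted p under 0.05. The EP group and the gel groups were all set against the same 5 Sham libraries, so that those comparisons are not independent of each other. The limma p-values set each group difference against a spread between rats that was pooled over 5 groups and drawn towards that of other genes.

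The promoters below were searched for the letters through which the lineage factor is known to act. RUNX proteins bind the core ACCACA, and in rodents RUNX2 is known to use such a core before the osteocalcin gene Bglap. In the RefSeq promoter table (GRCr8, 250 bases before the start site and 50 after it), 8 of the 10 genes had an entry, with 9 promoters in all. Phex and Sp7 had none. Capitals mark ACCACA or its reverse complement TGTGGT, and TATAAA or its reverse complement TTTATA, the core of the TATA box. Bglap (chr2:176137269-176137568, minus strand) and Ibsp (chr14:5757193-5757492, minus strand) are shown as late matrix genes, and the upstream promoter of Runx2 (chr9:23664808-23665107, plus strand) as that of the factor itself.
Bglap: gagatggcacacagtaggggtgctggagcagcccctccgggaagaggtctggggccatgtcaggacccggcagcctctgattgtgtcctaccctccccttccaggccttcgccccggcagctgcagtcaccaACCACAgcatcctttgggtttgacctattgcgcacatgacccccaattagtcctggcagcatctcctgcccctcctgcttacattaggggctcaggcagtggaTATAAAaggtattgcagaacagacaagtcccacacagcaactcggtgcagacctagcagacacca
Ibsp: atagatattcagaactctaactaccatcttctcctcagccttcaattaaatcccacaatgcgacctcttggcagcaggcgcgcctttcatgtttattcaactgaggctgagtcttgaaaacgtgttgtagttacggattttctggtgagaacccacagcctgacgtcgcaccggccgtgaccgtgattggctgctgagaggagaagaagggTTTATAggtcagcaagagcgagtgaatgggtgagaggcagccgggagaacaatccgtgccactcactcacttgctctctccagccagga
Runx2: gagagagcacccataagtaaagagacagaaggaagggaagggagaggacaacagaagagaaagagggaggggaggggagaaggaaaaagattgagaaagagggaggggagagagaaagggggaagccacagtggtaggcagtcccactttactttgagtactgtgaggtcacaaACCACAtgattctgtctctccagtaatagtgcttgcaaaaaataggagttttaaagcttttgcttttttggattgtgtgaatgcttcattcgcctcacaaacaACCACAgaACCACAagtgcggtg
Bglap held ACCACA starting at position -118 and TATAAA at -15. Ibsp held TTTATA at -39 and no RUNX core, and the upstream Runx2 promoter held ACCACA at -76, 28 and 36, the last 2 after the start. Among the other genes, Sparc held ACCACA at -205 and Spp1 TATAAA at -204, while neither motif was found in these windows of Dmp1, Alpl, Pth1r or the other Runx2 promoter. Of 33469 RefSeq rat promoters of this length, 17.3% held a RUNX core and 14.2% the TATA letters on either strand.

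Between EP and Sham gingiva, 1 of the 10 genes rose and 1 fell. Phex was higher and Pth1r lower in EP, against 37.6% of all genes tested called in this comparison, with 18.8% higher and 18.8% lower. The median log2 fold change of the 10 genes was -0.98, beside 0.01 over all genes tested, and 9 of the 10 estimates were below 0. The 8 genes that were not called lay lower in EP by amounts that did not pass the test. In bulk gingiva, fewer cells of a type and less RNA per cell cannot be told apart.

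**Figure D1:**
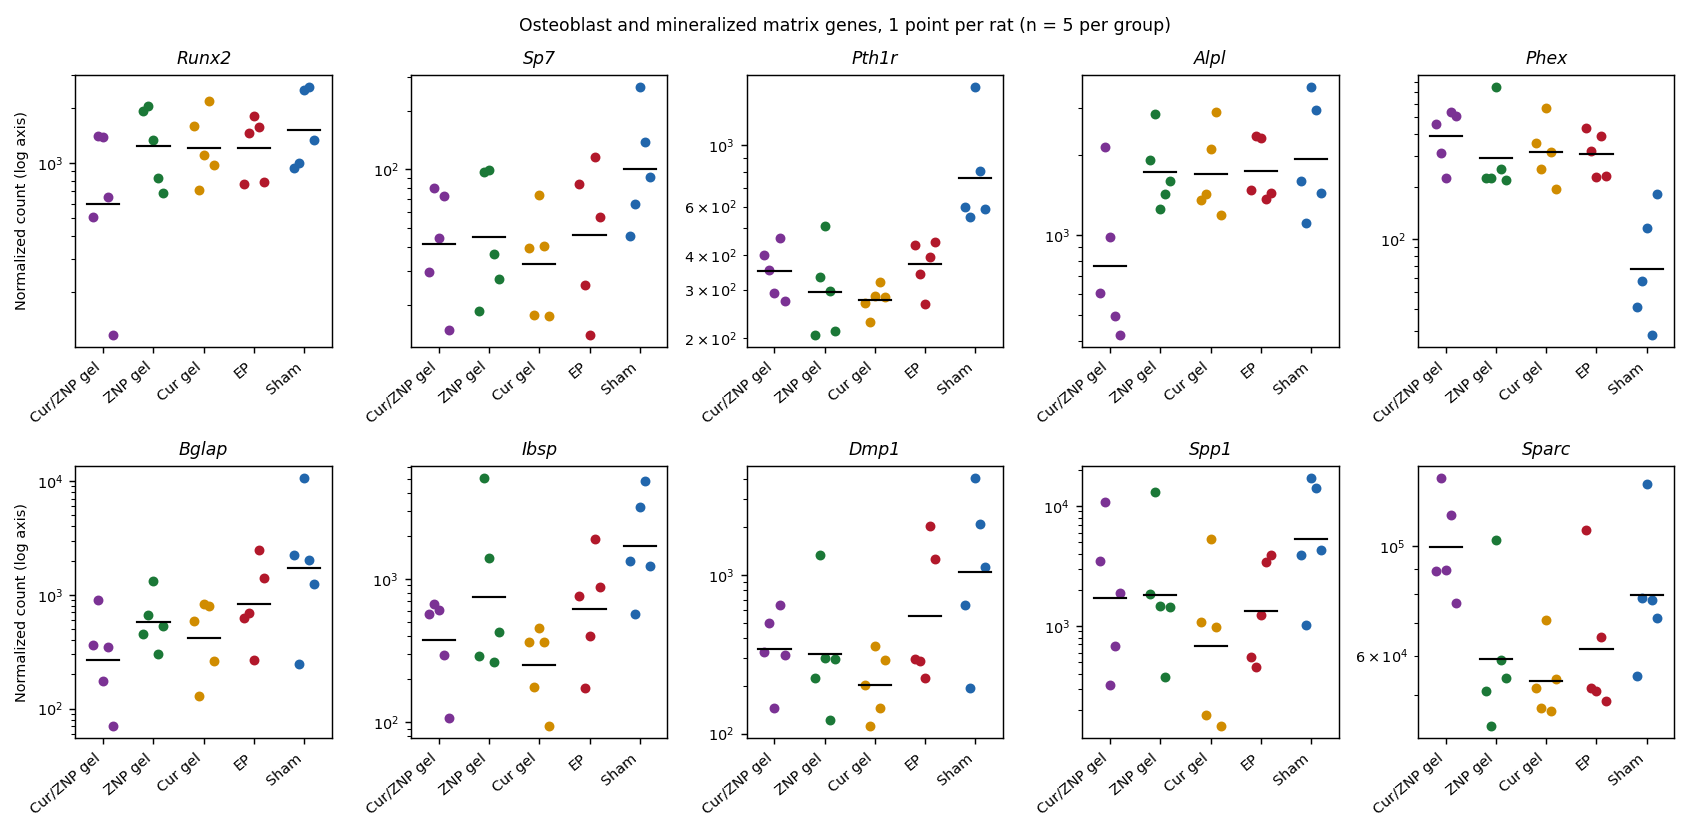
Normalized counts (log axis) of the 10 genes, 1 point per rat and 5 rats per group, with a line at the mean taken on the log2(normalized count + 1) scale. The 20 ligated rats all lie above the Sham points for Phex (194 to 749, against 28.5 to 182 in Sham) and all below them for Pth1r (206 to 510.1, against 551 to 1629 in Sham), and for the other 8 genes they overlap with Sham.

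Runx2 (chromosome 9, 18564927 to 18773092, plus strand, Rnor_6.0, 1 transcript) encodes the factor that commits cells to the osteoblast lineage, and it is also active in hypertrophic cartilage. Its normalized counts were 507, 1397, 1379, 651 and 117 in the Cur/ZNP gel group, 1918, 2040.1, 1337, 827 and 687 with ZNP gel and 1585, 711, 1104, 2178 and 969 with Cur gel. They were 765, 1462, 1807, 1569 and 789 in EP and 939, 996, 2474, 2588 and 1335 in Sham. The Cur/ZNP gel group reached down to 117 in 1 rat, while the other 4 groups lay between 687 and 2588. Runx2 fell by 1.35 on the log2 scale in the Cur/ZNP gel group against Sham (SE 0.53, limma adjusted p = 0.0473). The call ended in 7 of 10 alternatives, edgeR (adjusted p = 0.104) and DESeq2 (0.0737) among them, and without any of Sham 3, Sham 4, Sham 5, Cur/ZNP gel 1, Cur/ZNP gel 4 or Cur/ZNP gel 5 (adjusted p 0.0567 to 0.18). Against Sham the other groups gave -0.29 (ZNP gel, adjusted p = 0.704), -0.32 (Cur gel, 0.652) and -0.33 (EP, 0.643) in limma.

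Sp7 (chromosome 7, 143958858 to 143967484, minus strand) encodes the zinc finger factor that osteoblasts need after RUNX2. Its reads were few, 10 to 203 per library, and its 2 transcripts held 41.2% and 58.8% of its normalized counts. Normalized counts were 29.6, 80.1, 44.4, 72.5 and 14.9 in the Cur/ZNP gel group, 18.7, 96.9, 98.7, 36.6 and 27.4 with ZNP gel and 39.6, 17.8, 74.2, 40.1 and 17.5 with Cur gel. They were 84.5, 25.4, 14.1, 116 and 56.6 in EP and 45.3, 66.7, 266, 138 and 91.4 in Sham. Of the 20 ligated rats, 12 lay below the lowest Sham rat, and the ranges of all groups overlapped. In limma the difference from Sham was -1.27 in the Cur/ZNP gel group (adjusted p = 0.118), -1.14 in the ZNP gel group (0.174), -1.59 in the Cur gel group (0.0548) and -1.11 in EP (0.178). The Cur gel difference passed in edgeR (adjusted p = 0.0443) and in DESeq2 (0.0211), and in limma with a pseudocount of 8 (0.0485) or without Sham 1 (0.0405), Sham 2 (0.0469) or Cur gel 3 (0.037).

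Pth1r (chromosome 8, 118988053 to 119012671, minus strand) encodes the receptor through which parathyroid hormone and its related peptide act on osteoblasts and on cells of the tooth follicle. It had 399, 354, 292, 461 and 274 normalized counts in the Cur/ZNP gel group, 206, 334, 510.1, 295 and 212 with ZNP gel and 267, 228, 285, 319 and 282 with Cur gel. EP had 436, 341, 265, 395 and 445, against 596, 551, 1629, 809 and 589.6 in Sham. All 20 ligated rats lay below all 5 Sham rats, a separation that 3.44% of all genes tested showed in this direction. Pth1r averaged 356 ± 77.1 in the Cur/ZNP gel group, 311 ± 124 in the ZNP gel group, 276 ± 32.8 in the Cur gel group, 376 ± 74.6 in EP and 835 ± 455 in Sham (SD, n = 5 each).

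Pth1r fell by 1.04 on the log2 scale in EP against Sham (SE 0.27, 95% interval -1.60 to -0.48, limma adjusted p = 0.0051). Against the same Sham rats the difference was -1.12 with Cur/ZNP gel (adjusted p = 0.00288), -1.37 with ZNP gel (0.0013) and -1.47 with Cur gel (0.000426). All 4 calls held with any 1 library of their groups left out. The EP call ended without Sham 4, EP 3 and EP 4, where the difference was -0.89 with an adjusted p of 0.0539. In EP against Sham all 7 tested neuron markers fell too, of a list that summed to between 78.9 and 233 normalized counts in EP and between 521 and 132570 in Sham. Across the 25 libraries Pth1r correlated at r = 0.67 with the mean of that list, and at 0.33 after group means were removed. The tooth matrix markers, of which only Odam and Dspp of 8 were tested, correlated with Pth1r at 0.72, and at 0.50 within groups. The median log2 fold change of Odam and Dspp in EP against Sham was -2.48, and neither was called. Dspp was 0 in 23 of 25 libraries, so that this list followed Odam in nearly all of them. Odam is also a gene of the epithelium that seals gum to tooth. The part of nerve, of tooth tissue or of that epithelium in the Pth1r difference was not tested.

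Alpl (chromosome 5, 156086497 to 156141537, minus strand) encodes the tissue-nonspecific alkaline phosphatase, which removes the mineralization inhibitor pyrophosphate. Its 2 transcripts held 82.0% and 18.0% of its normalized counts. Normalized counts were 604, 2134, 983, 496 and 423 in the Cur/ZNP gel group, 1909, 2839, 1246, 1421 and 1597 with ZNP gel and 1346, 1419.6, 2102, 2901 and 1182 with Cur gel. They were 1476, 2345, 2301, 1366 and 1431 in EP and 1587, 1110.3, 3590.1, 2943 and 1436 in Sham. In the Cur/ZNP gel group 4 of 5 rats lay below all 20 other libraries, and the fifth, Cur/ZNP gel 2, lay among them at 2134. Alpl fell by 1.33 on the log2 scale in the Cur/ZNP gel group against Sham (SE 0.39, 95% interval -2.13 to -0.53, limma adjusted p = 0.0101). This call held with any 1 library left out and ended when the 2 groups were fitted alone (adjusted p = 0.0668).

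Against the other ligated groups, the Alpl difference with Cur/ZNP gel was -1.17 from EP (95% interval -1.98 to -0.37), -1.14 from Cur gel (-1.94 to -0.33) and -1.17 from ZNP gel (-1.97 to -0.37). The unadjusted p-values in limma were 0.00616, 0.00761 and 0.00633, and over all genes the adjusted p-values were 0.293, 0.298 and 0.899, so that none passed. The ZNP gel group, the Cur gel group and EP had differences of -0.16 (adjusted p = 0.775), -0.19 (0.717) and -0.16 (0.775) from Sham. Fibroblast markers had their highest median sum in the group where Alpl averaged lowest. They summed to between 219110 and 385360 normalized counts in the Cur/ZNP gel group, between 107880 and 303960 in the ZNP gel group, between 134970 and 210590 in the Cur gel group, between 120250 and 255700 in EP and between 75194 and 180230 in Sham. All 6 fibroblast markers rose in the Cur/ZNP gel group against Sham, and the part of tissue composition in the Alpl difference was not tested.

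Phex (chromosome X, 40460047 to 40717982, plus strand) encodes a membrane endopeptidase of osteoblasts, osteocytes and odontoblasts, whose loss causes X-linked hypophosphatemia. Its normalized counts were 459, 314, 226, 539 and 513 in the Cur/ZNP gel group, 226, 226, 749, 254 and 219.8 with ZNP gel and 358, 253, 565, 315 and 194 with Cur gel. EP had 438, 321, 228, 389 and 229.8, against 41.1, 57.8, 117, 28.5 and 182 in Sham. All 20 ligated rats were above all 5 Sham rats, as in 1.95% of all genes tested. The closest pair was Cur gel 5 at 194 and Sham 5 at 182. Phex averaged 410.1 ± 135 in the Cur/ZNP gel group, 335 ± 232 in the ZNP gel group, 337 ± 142 in the Cur gel group, 321 ± 93.8 in EP and 85.2 ± 63.7 in Sham (SD, n = 5 each).

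Phex rose by 2.17 on the log2 scale in EP against Sham (SE 0.44, 95% interval 1.27 to 3.08, limma adjusted p = 0.00089). The rise against Sham was 2.50 in the Cur/ZNP gel group (adjusted p = 0.00029), 2.09 with ZNP gel (0.00188) and 2.20 with Cur gel (0.000732). All 4 calls held under each of 10 alternative settings and with any 1 library of their groups left out. The ligated groups did not differ detectably among themselves, with differences from EP of 0.33 in the Cur/ZNP gel group (95% interval -0.58 to 1.23), -0.09 with ZNP gel (-0.99 to 0.82) and 0.03 with Cur gel (-0.88 to 0.93). Phex alone of the 10 genes was called higher by limma in any comparison.

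Some markers of other cells also rose between Sham and the ligated groups, though not all of them in every group. Bone marrow precursor markers summed to between 6479 and 9739 normalized counts in the Cur/ZNP gel group, 4834 and 26916 with ZNP gel, 7113 and 11928 with Cur gel, 4169 and 10250 in EP, and 1001 and 2346 in Sham. Most of these sums was Hbb, a gene of red cells, which averaged 7012 in EP and 1442 in Sham. Alas2 averaged 186 in EP. In EP, 3 of the 6 tested marrow markers rose (Hbb, Alas2 and Ngp, genes of red cells and of neutrophil precursors). Mpo (-0.76), Ctsg (1.63) and Camp (1.39) were not called. All 6 of 6 skeletal muscle markers rose in EP, with a median log2 fold change of 3.39. Of these muscle markers, 6 were called higher than Sham with Cur/ZNP gel, 4 with ZNP gel and 0 with Cur gel. Of 6 fibroblast markers, 6 were called higher with Cur/ZNP gel and 1 each with ZNP gel, with Cur gel and in EP. Across the 25 libraries Phex correlated at r = 0.71 with the mean of the fibroblast markers, at 0.65 with the marrow markers and at 0.45 with the muscle markers. After group means were removed these were 0.53, 0.23 and -0.01, and the correlation with periodontal ligament markers was 0.62. The part of these tissues and of blood in the Phex difference was not tested.

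Bglap (chromosome 2, 187741770 to 187742747, minus strand) encodes osteocalcin, the small calcium-binding protein of mature osteoblasts, whose promoter is the first of those shown. Its normalized counts were 364, 903, 175, 351 and 70.4 in the Cur/ZNP gel group, 449, 669, 1316, 301 and 528 with ZNP gel and 589.7, 129, 829, 793 and 260.5 with Cur gel. They were 625, 698, 268, 2506 and 1403 in EP and 2239.9, 249, 10622, 2020.4 and 1248 in Sham. Sham spanned 42.7-fold, with Sham 3 highest of the 25 libraries, and 3 of the 20 ligated rats lay below all Sham rats. Bglap fell by 2.67 on the log2 scale in the Cur/ZNP gel group against Sham (SE 0.81, 95% interval -4.35 to -0.98, limma adjusted p = 0.0128). With any 1 library left out its adjusted p stayed between 0.00132 and 0.0482, and in the fit of the 2 groups alone it was 0.0639.

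For the other groups the Bglap difference from Sham was -1.58 in the ZNP gel group (adjusted p = 0.138), -2.03 in the Cur gel group (0.0522) and -1.04 in EP (0.326), in limma. Both gel differences passed without Sham 2, the Sham library with least Bglap, at adjusted p = 0.022 for the ZNP gel and 0.00642 for the Cur gel group. The Cur gel difference passed too without Cur gel 3 (0.0488) or Cur gel 4 (0.0461). Both gel differences, in the same order, passed in edgeR (0.0354 and 0.0153) and in DESeq2 (0.00723 and 0.00154). Against EP, Bglap in the Cur/ZNP gel group differed by -1.63 (95% interval -3.31 to 0.05, limma adjusted p = 0.402).

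On chromosome 14, Spp1, Mepe, Ibsp, Dmp1 and Dspp lie within 1 stretch from 6673686 to 6933070 on the minus strand. They encode the small integrin-binding ligand N-linked glycoproteins, secreted acidic phosphoproteins of bone and dentin. Ibsp (6801204 to 6813945) encodes bone sialoprotein, which starts mineral formation at bone and cementum surfaces. It had 571, 666, 604, 295 and 107 normalized counts in the Cur/ZNP gel group, 291, 5044, 1400.3, 262 and 428 with ZNP gel and 363, 177, 457, 362 and 94.2 with Cur gel. EP had 756, 172, 400.2, 1891 and 880.2, and Sham had 1340.4, 569, 3176, 4842 and 1228. The highest of the 25 libraries was ZNP gel 2, not a Sham rat. All 5 Cur gel rats lay below all 5 Sham rats, a separation seen in 8.84% of all genes tested in this direction.

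Ibsp fell by 2.76 on the log2 scale in the Cur gel group against Sham (SE 0.79, 95% interval -4.39 to -1.13, limma adjusted p = 0.009), a call that held with any 1 library left out. It fell by 2.19 in the Cur/ZNP gel group (adjusted p = 0.0315), a call that ended without Sham 3 (0.0745), Sham 4 (0.0867), Cur/ZNP gel 4 (0.0592) or Cur/ZNP gel 5 (0.102). The difference from Sham was -1.19 with ZNP gel (adjusted p = 0.252) and -1.47 in EP (0.144), neither of which passed in limma.

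Dmp1 (6889856 to 6900733) encodes dentin matrix protein 1, a product of osteocytes and odontoblasts. It had 325, 499.8, 145, 645 and 314 normalized counts in the Cur/ZNP gel group, 224, 1342, 301, 121 and 297 with ZNP gel and 203, 112, 359, 146 and 291 with Cur gel. EP had 295, 288, 224, 2047 and 1258, and Sham had 649, 195, 4067, 2108 and 1125. EP split into 3 rats at 224 to 295 and 2 rats at 1258 and 2047, and Sham 2 lay below all 5 EP rats. Dmp1 fell by 2.35 on the log2 scale in the Cur gel group against Sham (SE 0.75, limma adjusted p = 0.017), which ended without Sham 3 (-1.86, adjusted p = 0.062). The other differences from Sham were -1.60 in the Cur/ZNP gel group (adjusted p = 0.0923), -1.71 with ZNP gel (0.0825) and -0.93 in EP (0.341). Those of the Cur/ZNP gel and ZNP gel groups passed without Sham 2 (adjusted p = 0.0158 and 0.014) and in DESeq2 (0.0108 and 0.0294), the Cur/ZNP gel difference also in edgeR (0.0388) and the ZNP gel difference also without ZNP gel 2 (0.0283).

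Spp1 (6673686 to 6679901) encodes osteopontin, which anchors osteoclasts to mineral and is also a macrophage product. Of its 2 transcripts, 1 held 96.2% of its normalized counts. Normalized counts were 3488, 10706, 321, 674 and 1881 in the Cur/ZNP gel group, 1849, 13007, 1462, 374 and 1441 with ZNP gel and 1069.9, 180.1, 5251, 972 and 147 with Cur gel. They were 553, 453, 1232, 3419.7 and 3892 in EP and 3928, 1021, 17019.6, 14005 and 4309 in Sham. The gel groups each held both high and low rats, with a span of 33.4-fold in the Cur/ZNP gel, 34.8-fold in the ZNP gel and 35.8-fold in the Cur gel group. Spp1 fell by 2.96 on the log2 scale in the Cur gel group against Sham (SE 1.09, limma adjusted p = 0.037). That call ended in 5 of 10 alternatives and with any of Sham 1, Sham 3, Sham 4, Cur gel 2 or Cur gel 5 left out (adjusted p up to 0.104). The differences of -1.62 in the Cur/ZNP gel group (adjusted p = 0.244), -1.55 with ZNP gel (0.282) and -1.99 in EP (0.154) from Sham did not pass.

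The other 2 genes of that stretch were not among the 10 genes. Mepe, an osteocyte product, ranged from 10.2 to 516 normalized counts in the Cur/ZNP gel group, 0 to 435 in the ZNP gel group, 3.14 to 72.5 in the Cur gel group, 11.3 to 1966 in EP and 10.7 to 596 in Sham. Dspp, the main phosphoprotein of dentin, was listed at 0 in every ZNP gel, Cur gel and EP library. Its highest values were 3.70 in the Cur/ZNP gel group and 431 in Sham, where the median was 0.

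Neuron markers moved in part with Bglap, Ibsp, Dmp1 and Spp1. Neuron markers summed to between 104 and 39620 normalized counts in the Cur/ZNP gel group, between 110 and 218 with ZNP gel, between 142 and 1864 with Cur gel, between 78.9 and 233 in EP and between 521 and 132570 in Sham, and all 7 tested fell in each of the 4 comparisons with Sham. They correlated across the 25 libraries at r = 0.63 with Bglap, 0.48 with Ibsp, 0.52 with Dmp1 and 0.65 with Spp1. After group means were removed, r was 0.63, 0.31, 0.37 and 0.59 in the same order. Sham 3, the library with most Bglap, Dmp1 and Spp1, also had the largest share of neuron reads (0.199%) and the Dspp value of 431. ZNP gel 2, with the most Ibsp (5044) and with Spp1 at 13007, had only 0.000193% neuron reads. EP 4, with Dmp1 at 2047, had 0.000206%.

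Odam, a gene of ameloblasts and of the epithelium that seals gum to tooth, reached the highest counts of the tooth matrix markers. The markers summed to between 43.6 and 3125 normalized counts in the Cur/ZNP gel group, between 0 and 5114 with ZNP gel, between 8.38 and 1186 with Cur gel, between 32.2 and 16347 in EP and between 4519 and 18391 in Sham. Of all lists, that of 24 other osteoblast, osteocyte and mineralization genes correlated most with the mean of Bglap, Ibsp, Dmp1 and Sp7. Its r was 0.71, and 0.64 within groups. With the same mean the correlation was 0.61 for tooth matrix, 0.60 for neuron, 0.51 for osteoclast and 0.46 for cartilage markers. Within groups these were 0.40, 0.47, 0.41 and 0.36. The most negative were fibroblast (-0.50) and endothelium (-0.43) markers. The part of other tissues in the matrix gene differences was not tested.

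Sparc (chromosome 10, 40742400 to 40764185, minus strand) encodes osteonectin, a collagen-binding protein of bone that fibroblasts and endothelium also secrete. Its normalized counts were 89014, 137514, 89557, 115989 and 76836 in the Cur/ZNP gel group, 50922, 43191, 102915, 58704 and 53990.5 with ZNP gel and 51576, 47044, 70697, 46237 and 53872 with Cur gel. They were 108132, 51606, 50830.4, 65414 and 48576 in EP and 54501, 78506, 133998, 77663 and 71536 in Sham. All 5 Cur/ZNP gel rats lay above all 5 Cur gel rats, which 1.5% of all genes tested did in this direction. The Sparc difference with Cur/ZNP gel was 0.90 from Cur gel (95% interval 0.37 to 1.44, limma adjusted p = 0.294), 0.75 from ZNP gel (0.22 to 1.29, 0.899) and 0.69 from EP (0.15 to 1.22, 0.296). None of the 3 passed over all genes, and the difference of 0.32 between the Cur/ZNP gel group and Sham did not pass either (adjusted p = 0.327). Against Sham the differences were -0.43 with ZNP gel (adjusted p = 0.205), -0.58 with Cur gel (0.0799 in limma, 0.0475 without Sham 1 and 0.0485 in DESeq2) and -0.36 in EP (0.275). The fibroblast markers had their highest median sum in the same group, and the part of fibroblasts in the Sparc values was not tested.

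**Figure D2:**
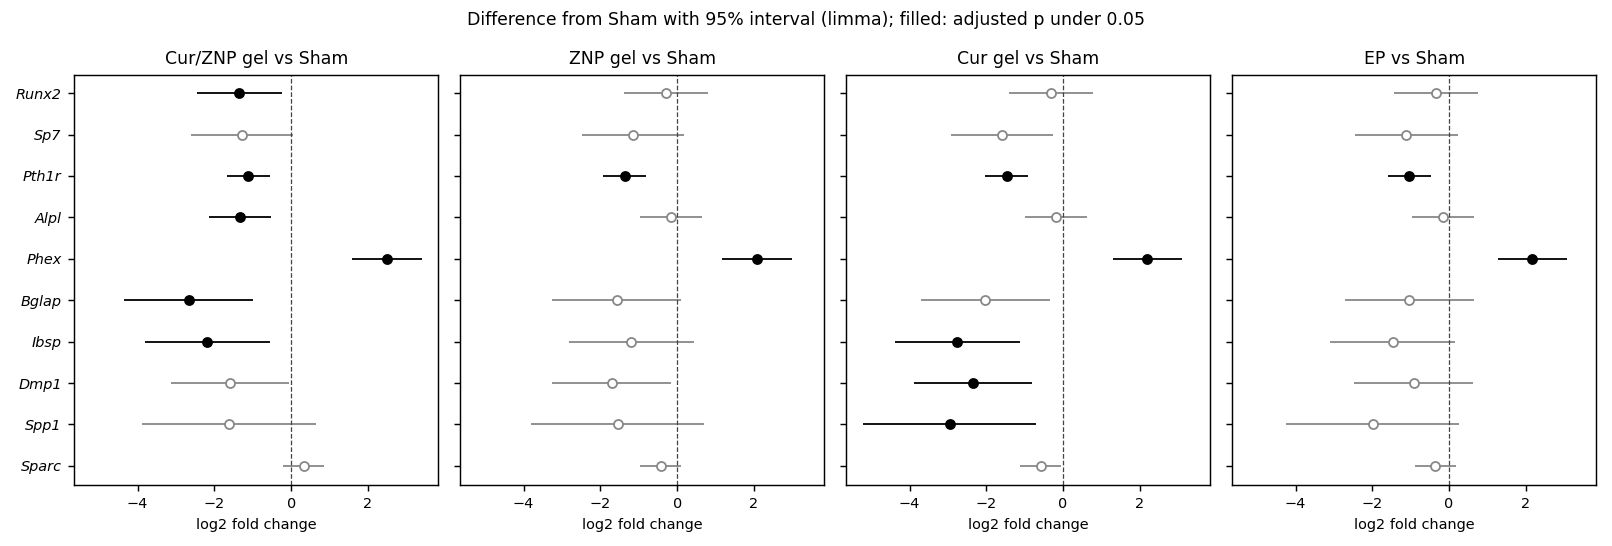
Log2 fold changes of the 10 genes against Sham (horizontal axis, with 95% intervals from limma) in the Cur/ZNP gel, ZNP gel, Cur gel and EP groups, 5 rats each. Filled points have an adjusted p under 0.05: Phex lies at 2.09 to 2.50 and Pth1r at -1.47 to -1.04 in all 4 panels, and the other filled points are in the Cur/ZNP gel panel (Runx2, Alpl, Bglap, Ibsp) and the Cur gel panel (Ibsp, Dmp1, Spp1).

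Counted together, 1 of the 10 genes rose and 5 fell in the Cur/ZNP gel group against Sham, where 39.7% of all genes tested were called (20.2% higher, 19.5% lower). In the ZNP gel group 1 rose and 1 fell (background 32.1%, with 16.7% higher and 15.4% lower), and in the Cur gel group 1 rose and 4 fell (background 38%, with 18.9% higher and 19.1% lower). The median difference of the 10 genes from Sham was -1.34, -1.17 and -1.53 in the Cur/ZNP gel, ZNP gel and Cur gel groups, beside -0.06, -0.01 and -0.03 over all genes tested. Only Phex and Pth1r were called in each of the 4 comparisons with Sham. The Cur/ZNP gel group had 5 falls and EP had 1, and 0 of the 10 genes passed the test between these groups.

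In the comparisons among ligated rats, 0 of the 10 genes were called. For the Cur/ZNP gel, ZNP gel and Cur gel groups against EP, limma called 0%, 0.00621% and 0% of all genes tested, and 0% for the Cur/ZNP gel group against each single gel. At an unadjusted p under 0.05, 2 of the 10 genes (Alpl and Sparc) passed for the Cur/ZNP gel group against EP, the same 2 against the Cur gel and the same 2 against the ZNP gel group, with backgrounds of 12.8%, 11.1% and 5.08%. For the ZNP gel and the Cur gel group against EP, 0 of the 10 passed even unadjusted, with backgrounds of 2.99% and 1.76%. edgeR and DESeq2 called 0 of the 10 in all 5 comparisons. The median difference of the 10 genes was -0.41 for the Cur/ZNP gel, -0.05 for the ZNP gel and -0.45 for the Cur gel group against EP, and 0.33 and -0.10 for the Cur/ZNP gel group against the Cur gel and ZNP gel groups.

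**Figure D3:**
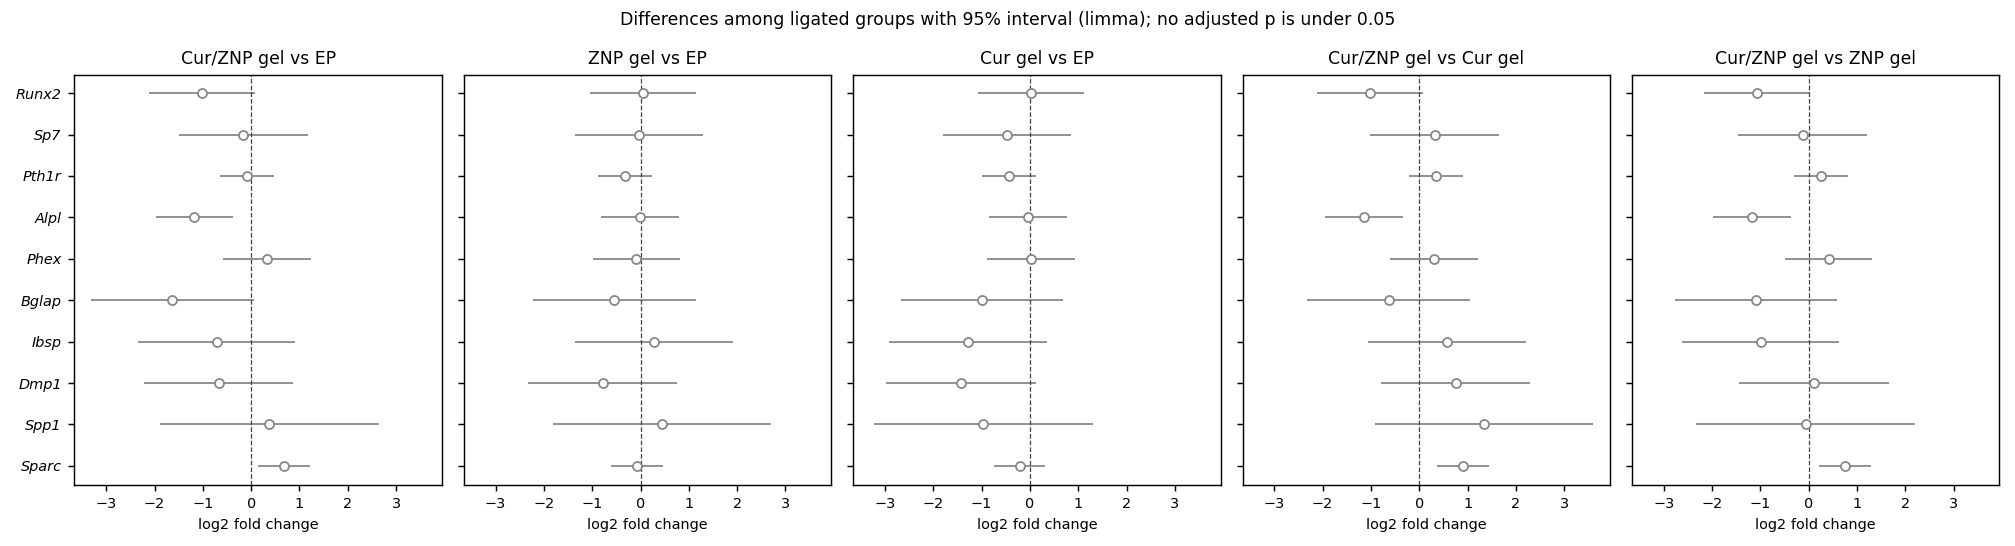
Log2 fold changes of the 10 genes (horizontal axis, 95% intervals from limma) for the 3 gel groups against EP and for the Cur/ZNP gel group against each single gel, 5 rats per group. No adjusted p is under 0.05; the intervals of Alpl (-1.17, -1.14 and -1.17) and Sparc (0.69, 0.90 and 0.75) leave out 0 in the 3 panels that hold the Cur/ZNP gel group first.

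These intervals were wide for the matrix genes. For Spp1 in the Cur/ZNP gel group against EP the interval ran from -1.88 to 2.64, and for Ibsp in the ZNP gel group against EP from -1.35 to 1.91. For Dmp1 in the Cur gel group against EP it ran from -2.97 to 0.12. They were narrower for Sparc (-0.60 to 0.47 in the ZNP gel group against EP) and for Pth1r (-0.64 to 0.48 in the Cur/ZNP gel group against EP). Sparc and Pth1r also varied less from rat to rat than Spp1, Ibsp and Dmp1 did.

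High and low values of several genes fell in the same libraries. Sham 3 was the highest of the 25 libraries for 6 of the 10 genes and the highest Sham library for 7. Cur/ZNP gel 2 was highest in its group for 7 genes and Cur/ZNP gel 5 lowest for 7, and Cur gel 3 was highest in its group for 7. ZNP gel 2 and ZNP gel 3 were each highest for 5, which left no gene to the other ZNP gel rats. The mean standardized value of Bglap, Ibsp, Dmp1 and Sp7 was highest in Sham 3 (2.21 SDs), Sham 4 (1.53), EP 4 (1.29) and ZNP gel 2 (1.05). It was lowest in Cur/ZNP gel 5 (-1.36), Cur gel 2 (-1.32) and Cur gel 5 (-1.06). With Phex in the mean, which ran against the other 4 (r = -0.33 with their mean), Sham 4 moved to place 5 (0.69) and EP 4 to place 2 (1.16).

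**Figure D4:**
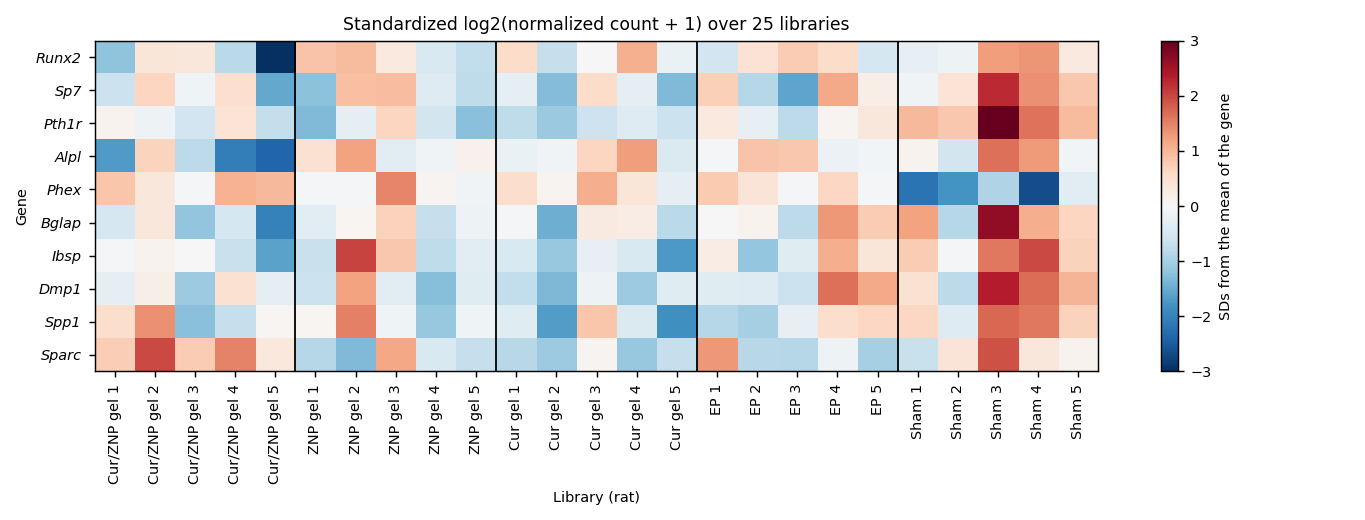
Standardized log2(normalized count + 1) of the 10 genes (rows) in 25 libraries (columns, grouped by treatment with Sham on the right), in SDs from the mean of each gene over all libraries. Sham 3 is high for all genes but Phex, Cur/ZNP gel 5 is the lowest of its group for 7, and Phex is below its mean in all 5 Sham libraries.

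A set of 6 genes, Bglap, Ibsp, Spp1, Sp7, Dmp1 and Pth1r, varied together from rat to rat. The set was not fixed beforehand. It leaves out Phex, Sparc, Alpl and Runx2, whose r with the 6 were mostly lower, so that its high r follows in part from the choice. Their 15 pairs had Pearson r between 0.53 and 0.82 across the 25 libraries, with a median of 0.74. After group means were removed r lay between 0.33 and 0.78, with a median of 0.66. Ibsp and Sp7 were the closest pair (0.82, and 0.78 within groups). Runx2 went most closely with Alpl (0.81, and 0.74 within groups) and less with Dmp1 (0.28) or Spp1 (0.29). Phex had r between -0.46 and -0.20 with the 6 genes across all libraries and between 0.06 and 0.42 within groups. The points share libraries and size factors, and these correlations are given as a description.

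**Figure D5:**
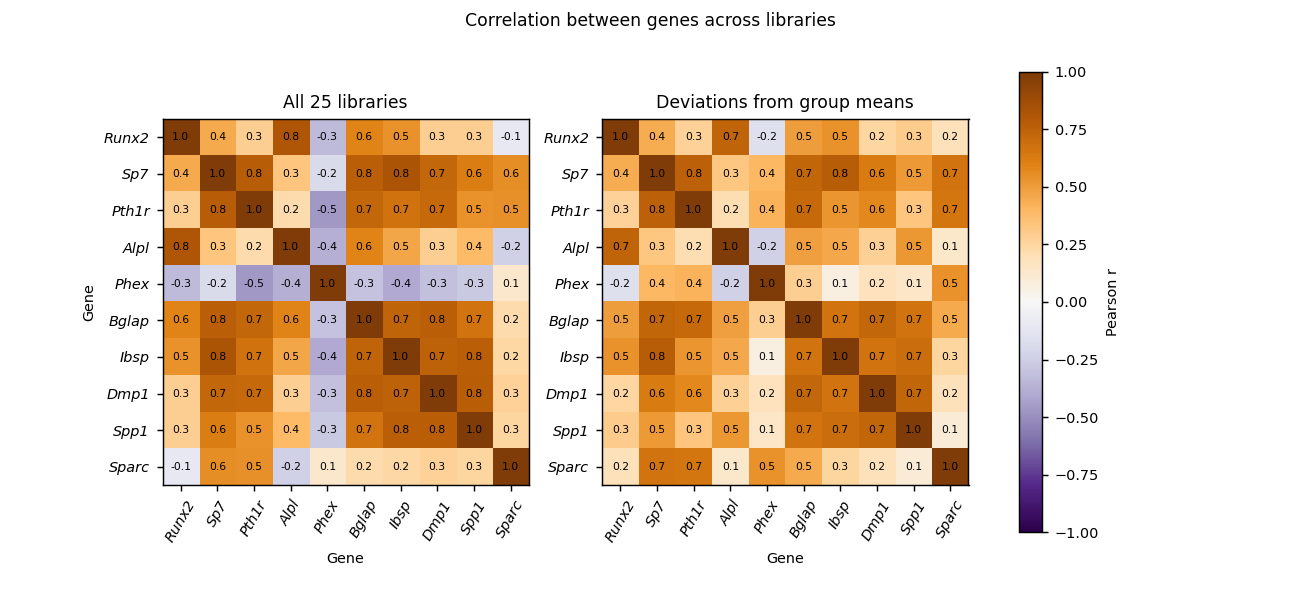
Pearson r between the 10 genes over 25 libraries, on log2(normalized count + 1), for all values (left) and for deviations from group means (right). The block of Bglap, Ibsp, Spp1, Sp7, Dmp1 and Pth1r, a set not fixed beforehand, keeps a median r of 0.74 on the left and 0.66 on the right. The row of Phex turns from negative to positive values with these genes.

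The genes most like the matrix genes were ranked among 16071 genes over 25 libraries, by r with the mean of Bglap, Ibsp, Dmp1, Sp7 and Phex. The first 6 were Mmp13 (r = 0.80), Cthrc1 (0.80), Atg14 (0.76), Mepe (0.76), Col11a1 (0.75) and Prss35 (0.75). With Phex left out of the mean, 4 of these stayed among the first 6, which were Mmp13 (0.89), Cthrc1 (0.82), Cnih2 (0.81), Podnl1 (0.81), Atg14 (0.79) and Prss35 (0.78). Mmp13 encodes the collagenase of osteoblasts and hypertrophic cartilage, and Cthrc1 a secreted protein that binds collagen-rich matrix. Mmp13 ranged from 18.8 to 245 normalized counts in the Cur/ZNP gel group, 65.0 to 1574 in the ZNP gel group, 5.23 to 487 in the Cur gel group, 183 to 1011 in EP and 197 to 8017 in Sham.

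Other genes of osteoblasts, osteocytes and mineralization were called in both directions in EP, at shares near those of all genes. Of 24 tested from a list of such genes, 4 rose and 5 fell against Sham, where 18.8% of all genes were called higher and 18.8% lower, with a median log2 fold change of 0.01, the same as over all genes. Smpd3, a sphingomyelinase that bone mineralization needs in mice, rose by 1.29 (limma adjusted p = 0.00263). Phospho1, the phosphatase that starts mineral inside matrix vesicles, rose by 2.02 (0.0372). Its highest value was 13837 normalized counts in ZNP gel 5, which had the largest share of skeletal muscle reads (4.02%). Its lowest was 391 in Cur gel 4, which had the smallest share (0.0149%). All 6 tested muscle markers rose in EP too, and the part of muscle in the Phospho1 difference was not tested. Lrp5, a co-receptor of WNT proteins, rose by 0.74 (0.00308), and Ankh, which exports pyrophosphate, by 0.81 (0.0298).

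Among those that fell were Dlx5, a homeobox factor of osteoblasts (log2 fold change -1.41, limma adjusted p = 0.0091), Pdpn, a membrane protein of young osteocytes and of lymphatic vessels (-0.75, 0.00876), and Enpp1, which makes pyrophosphate (-0.51, 0.019). Dlx5 ranged from 513 to 1031 normalized counts in EP and from 805 to 5178 in Sham. Cdh11 and Tmem119 were the other 2. In the gel groups the same list had 4 higher and 5 lower in the Cur/ZNP gel, 3 higher and 5 lower in the ZNP gel and 2 higher and 7 lower in the Cur gel group, each against Sham. Over all genes the shares higher and lower were 20.2% and 19.5% for the Cur/ZNP gel, 16.7% and 15.4% for the ZNP gel and 18.9% and 19.1% for the Cur gel group. limma called 0 of the 24 in the 5 comparisons among ligated rats. At an unadjusted p under 0.05, 7, 2 and 1 of them passed for the Cur/ZNP gel, ZNP gel and Cur gel groups against EP (12.8%, 2.99% and 1.76% of all genes), and 3 and 0 for the Cur/ZNP gel group against the Cur gel and ZNP gel groups (11.1% and 5.08%). The osteoclast list, for the cells that resorb bone, had 1 of 7 tested genes higher in EP than in Sham (Itgb3, 1.11, adjusted p = 0.033) and none lower, and its enzyme genes Acp5 (-0.25, adjusted p = 0.571) and Ctsk (-0.48, 0.238) did not pass.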

How the data were processed

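RNA of 25 gingival samples was sequenced after ribosomal depletion with a stranded kit. The authors deposited normalized counts per Ensembl transcript (Rnor_6.0, a signal made of reads divided by 1 size factor per library, with DESeq2 named in the submitters' processing notes). The aligner is not given in the sources used here. In each of 25 libraries 100% of values were whole multiples of 1 step (tolerance 0.01), which gave back whole reads. The table held 41078 transcripts, 396 of them without a symbol, besides 840 blank lines, and 0 columns of other samples.

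Transcripts were summed per symbol and chromosome. Genes that reached a CPM of 2 in any library were fitted with limma 3.58.1 (R 4.3.3; trend, robust) on log2(normalized count + 1). edgeR, intended for raw counts, served as an alternative (4.0.16, TMM) because the deposited values carry size factors, beside DESeq2 1.42.0, TMM factors in limma, pseudocounts of 0.5 and 8, no filter, filterByExpr, 2 groups alone, a replicate block, and libraries left out. Named are the 10 genes, up to 4 genes per list with the smallest p in EP against Sham and the 6 genes most like the mean of Bglap, Ibsp, Dmp1, Sp7 and Phex. The mean without Phex was added after seeing the data, as were the 2 genes it brought in (Cnih2 and Podnl1). Phospho1, Ankh, Enpp1, Cdh11 and Tmem119, outside this rule, were chosen after their values were seen. Mpo and Ctsg are also outside this rule, and with them all 6 tested marrow markers are named. The set of Bglap, Ibsp, Spp1, Sp7, Dmp1 and Pth1r was not fixed beforehand either. The genes and lists were chosen with earlier results of these data known. On simulated data for EP against Sham (16092 genes, 200 changed) limma recovered 46% of 2-fold and 78% of 4-fold changes, with 5 of 117 calls false. Tests were two-sided.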

Additional observations from a re-analysis of the deposited data

Results flagged for a closer look

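Phex in ZNP gel 3 stood far from the rest of its group, at 749 normalized counts against 254 in the next highest ZNP gel rat. On the log2(normalized count + 1) scale, the gap to that rat took 0.881 of the range of the group. Dixon's 95% limit for 5 samples is 0.71. It was the only such value among 50 sets of 1 gene in 1 group, and chance alone marks about 1 in 20 sets. Without ZNP gel 3 the group still lay above Sham.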

How the results depend on the processing

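Of 5 rats per group, fits with 1 rat left out changed single calls of the matrix genes. The number of the 10 genes called ranged from 4 to 7 for the Cur/ZNP gel, 2 to 4 for the ZNP gel, 3 to 7 for the Cur gel and stayed at 2 for the EP group, each against Sham, and at 0 in the 5 comparisons among ligated rats. DESeq2 called 8 of the 10 genes for the Cur gel and 4 for the ZNP gel group against Sham, where limma called 5 and 2. With the 2 groups fitted alone, 3 instead of 6 were called for the Cur/ZNP gel group. Without Sham 4, EP 3 and EP 4, 1 instead of 2 was called for EP. No called difference changed its sign.

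Libraries with the same rat number were compared across groups. Over 50 same-numbered pairs of libraries the correlation of deviations from group means had a median of -0.01, and 17 were over 0.1. The range was -0.39 to 0.51. Pairs of unlike number were not set beside them, so that shared handling by number cannot be judged from these values. With the replicate block 6, 2, 4 and 2 of the 10 genes were called for the Cur/ZNP gel, ZNP gel, Cur gel and EP groups against Sham, and 0 elsewhere.

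Over all genes, fits of 2 groups alone called 3663, 1962, 3363 and 3380 genes for the Cur/ZNP gel, ZNP gel, Cur gel and EP groups against Sham, where the fit of all groups called 6382, 5162, 6119 and 6057. DESeq2 called 206, 65 and 83 genes for the Cur/ZNP gel, ZNP gel and Cur gel groups against EP, and 16 and 26 for the Cur/ZNP gel group against the Cur gel and ZNP gel groups, where limma called 0, 1, 0, 0 and 0 and edgeR 0 in each. Without a filter limma called 3 for the ZNP gel group against EP. The causes were not tested. The low counts of Sp7 and the spread of Spp1, Bglap and Ibsp between rats limit what these comparisons can show.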
